A study of Capra hircus with 9 samples.

Results

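The miR-200 family was followed through the lactation cycle of the dairy goat mammary gland. Its 5 members, chi-miR-200b, chi-miR-200a, chi-miR-429, chi-miR-200c and chi-miR-141, were taken by name from a table of 1359 miRNAs. All 5 were abundant enough to be tested, among 696 miRNAs that reached 0.5 CPM (counts relative to the library total) in 3 or more libraries. Small RNA libraries of mammary tissue from Laoshan dairy goats were compared at late lactation (LL, 240 days after kidding), the dry period (DP, 300 days after kidding) and late gestation (LG, 140 days after mating). Each stage had 3 goats and 1 library per goat, and all goats were in the third parity and were sampled at slaughter on the same side of the udder. No treatment other than the stage is named. The libraries were made from whole tissue, although the labels also carry the entry mammary cell, so fewer epithelial cells and less of a miRNA per cell cannot be told apart.

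The miR-200 family is known for its role in epithelial identity. Its members repress the transcription factors ZEB1 and ZEB2, which switch off E-cadherin, and they are scarce in mesenchymal cells. A miRNA recognises its targets mainly through its seed, a short stretch near the 5′ end. The family has a pair of seeds that differ by a single base: chi-miR-200b, chi-miR-200c and chi-miR-429 carry one, and chi-miR-200a and chi-miR-141 carry the other. In the mammary gland, the family is found in luminal epithelial cells, and the study predicted chi-miR-200b as a regulator of the estrogen receptor gene ESR1.

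The 5 hairpins lie in 2 clusters, and both clusters hold both seeds. In the goat assembly ARS1.2, MIR429 (chr16:49822352-49822435), MIR200A (chr16:49823582-49823669) and MIR200B (chr16:49824216-49824295) spanned 1944 bp of chromosome 16. None of these 3 hairpins overlapped another annotated gene, and the nearest protein-coding gene, TTLL10, was 1230 bp from MIR429. On chromosome 5, MIR141 (chr5:102426122-102426211) and MIR200C (chr5:102426541-102426626) spanned 505 bp. Both were inside the long non-coding RNA gene LOC108636064, and the nearest protein-coding gene, PHB2, was 1129 bp from MIR141. The clusters are called here the chromosome 16 locus and the chromosome 5 locus.

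Library totals lay between 13672653 and 34378995 counts, and the least abundant member had at least 1784 counts in every library, so counting error was small beside the spread between goats. A count of 0 would have allowed up to 0.0873 to 0.219 CPM (3 counts). Within a stage, every pair of libraries differed by more than sampling noise, with a chi-square of at least 219 per degree of freedom, and no other miRNA had the same counts as a member. chi-miR-148a-3p, a very abundant miRNA of milk and mammary tissue, held 42.5% ± 2.74 (SD, n = 3) of the counts in LG, 53.6% ± 5.51 in LL and 9.61% ± 1.07 in DP. Because its share differed so much between stages, levels are given as CPM after TMM scaling, which is built on the bulk of the miRNAs, and other scalings are given where they change a call.

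The family as a whole was at its lowest in DP. The 5 members together reached 36391 CPM ± 1883 (SD, n = 3) in LG, 37803 ± 3806 in LL and 17398 ± 3955 in DP. As a share of all counts, which does not use TMM, the family held 4.39% ± 0.374 in LG, 3.07% ± 0.697 in LL and 1.82% ± 0.554 in DP. On the CPM scale, the highest DP library (20811 CPM) was below the lowest LG library (34218 CPM) and the lowest LL library (34893 CPM).

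The members differed widely in level. Each read is 1 whole miRNA, so CPM was compared between members without a correction for length, but differences in ligation between sequences were not measured. In LG the order was chi-miR-200b (19738 CPM), chi-miR-200a (10395 CPM), chi-miR-200c (5239 CPM), chi-miR-141 (690 CPM) and chi-miR-429 (329 CPM), with no overlap between neighbours over the 3 libraries. In LL and DP the libraries of chi-miR-200a and chi-miR-200c overlapped. In DP those of chi-miR-141 and chi-miR-429 overlapped as well. chi-miR-200b ranked between 8 and 19 among the 696 tested miRNAs over the 9 libraries, and chi-miR-429 between 78 and 161.

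**Figure D1:**
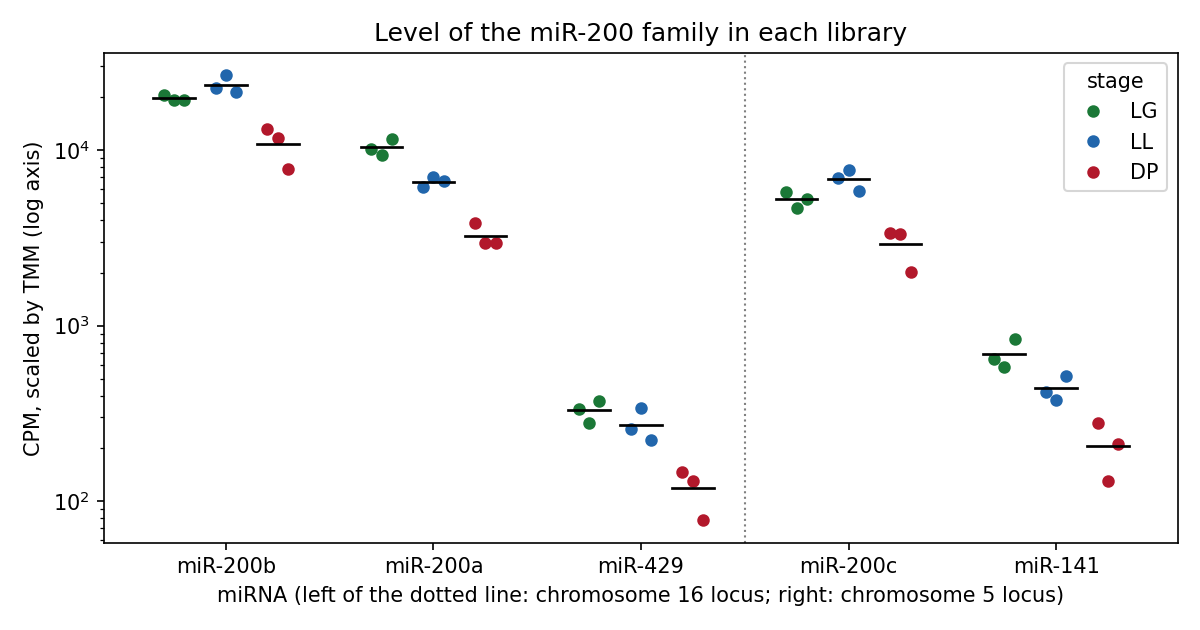
Level of each member in each of the 9 libraries, in CPM after TMM scaling on a log axis. Points are libraries, bars are stage means, and the dotted line divides the chromosome 16 locus from the chromosome 5 locus. All DP points of a member lie below its LG and LL points, whereas LL lies above LG for chi-miR-200b and chi-miR-200c (not by library size only) and below LG for chi-miR-200a and chi-miR-141.

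chi-miR-200b is the most abundant member and represses ZEB1 and ZEB2. In CPM, its level was 20675, 19287 and 19253 in the LG libraries, 22628, 26730 and 21568 in LL, and 13175, 11782 and 7792 in DP. DP was lowest with no overlap, and every LL library was above every LG library. chi-miR-200c carries the same seed but comes from chromosome 5. It stood at 5741, 4705 and 5271 CPM in LG, at 6953, 7670 and 5873 in LL, and at 3355, 3334 and 2023 in DP. The order of the stages was that of chi-miR-200b, LL above LG and DP lowest, again with no overlap. The order of LL and LG held with TMM in the main fit but not by library size only, where the libraries of both miRNAs overlapped. There the log2 fold changes in LL vs. LG were -0.31 for chi-miR-200b and -0.19 for chi-miR-200c. Other TMM fits gave smaller values than the main fit. They were 0.071 and 0.20 without chi-miR-148a-3p, 0.0096 and 0.14 with a minimum of 10 counts, and -0.051 and 0.075 with no filter. For both miRNAs, DP replicate 3 was the lowest library.

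chi-miR-200a, the neighbour of chi-miR-200b on chromosome 16, followed another order. Its level in CPM was 10161, 9366 and 11657 in LG, 6148, 6993 and 6709 in LL, and 3856, 2940 and 2960 in DP. The 3 stages did not overlap, and here LG was the highest. chi-miR-141, which shares the seed of chi-miR-200a and the locus of chi-miR-200c, had 645, 581 and 843 CPM in LG, 419, 378 and 519 in LL, and 280, 131 and 211 in DP. Its stages stood in the order of chi-miR-200a, LG, LL, DP, without overlap. chi-miR-429, the least abundant member of the chromosome 16 locus, had 336, 279 and 373 CPM in LG, 257, 339 and 225 in LL, and 146, 131 and 77.8 in DP. LG and LL overlapped for chi-miR-429 with TMM, and DP was below both.

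In DP vs. LG, 3 of the 5 members were DE-miRNAs, and all 3 were lower in DP. DE-miRNAs were those with an adjusted p under 0.05 whose log2 fold change exceeded 1 in size. In edgeR's quasi-likelihood test, with p adjusted by Benjamini-Hochberg over all 696 miRNAs, chi-miR-141 (log2 fold change -1.73, SE 0.30, adjusted p = 0.00155), chi-miR-200a (-1.68, SE 0.20, adjusted p = 0.000226) and chi-miR-429 (-1.48, SE 0.29, adjusted p = 0.00291) fell. With TMM they were 3.33-, 3.20- and 2.79-fold lower in DP. With the library size alone without chi-miR-148a-3p, the log2 fold changes were -2.56, -2.52 and -2.33 for these 3 and -1.71 for both chi-miR-200b and chi-miR-200c, and the median of all tested miRNAs was -0.66 in place of 0.18. Relative to that median, chi-miR-141 stood at -1.91 with TMM and -1.90 with that scaling. Of all tested miRNAs, 9.91% were DE-miRNAs that were lower in DP, and 21.6% were DE-miRNAs that were higher.

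chi-miR-200b (log2 fold change -0.85, SE 0.22, adjusted p = 0.0130) and chi-miR-200c (-0.85, SE 0.24, adjusted p = 0.0170) passed the p threshold of the same edgeR test, but their 1.81- and 1.80-fold differences missed the fold limit. Of all tested miRNAs, 11.1% were lower in DP past the p threshold at any fold. Both members were past that limit, and the count was 5 of 5, with DESeq2, upper quartile scaling, scaling by library size only, or TMM computed without chi-miR-148a-3p. It was also 5 without any one of LL replicates 1 to 3, DP replicates 1 and 2, or LG replicates 2 and 3, and it stayed at 3 without DP replicate 3 or LG replicate 1. All 5 members had DP libraries that lay below every LG library, as did 17.0% of the tested miRNAs. The members had a median log2 fold change of -1.48, against 0.18 for all tested miRNAs.

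In DP vs. LL, all 5 members were DE-miRNAs that were lower in DP, beside 11.6% of all tested miRNAs. The log2 fold changes were close together, between -1.23 (SE 0.24) for chi-miR-200c and -1.02 (SE 0.20) for chi-miR-200a, or 2.35- to 2.03-fold lower. By edgeR's quasi-likelihood test the adjusted p was 0.00350 for chi-miR-200c and chi-miR-200a, 0.00444 for chi-miR-200b (-1.11, SE 0.22), 0.0101 for chi-miR-429 (-1.21, SE 0.29) and 0.0198 for chi-miR-141 (-1.08, SE 0.30). The median was -1.11 over the members and 0.12 over all tested miRNAs. With TMM, all DP libraries lay below every LL library for all 5 members, as for 20.3% of the tested miRNAs. By library size only, DP replicate 1 was above LL replicate 3 for chi-miR-429 (170 and 169 CPM) and above LL replicate 1 for chi-miR-141 (327 and 312 CPM), and the other 3 members did not overlap. Both comparisons share the DP libraries, so they are not independent.

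The DP vs. LL calls depended on the scaling. With library size only, the count was 0 of 5: the log2 fold changes were between -0.88 for chi-miR-200c (adjusted p = 0.0291) and -0.65 for chi-miR-200a (adjusted p = 0.0679), and that of chi-miR-200b was -0.75 (adjusted p = 0.0485). chi-miR-141 (-0.66, adjusted p = 0.163) and chi-miR-429 (-0.86, adjusted p = 0.0739) missed the p threshold of edgeR's test. That scaling moved the median of all tested miRNAs from 0.12 to 0.49. Relative to this median, the members differed by -1.36 to -1.13 with library size only and by -1.36 to -1.15 with TMM. With the library size alone without chi-miR-148a-3p, the members' log2 fold changes were -1.83 to -1.60 and the median was -0.48. Without DP replicate 2, chi-miR-200a (-0.93) and chi-miR-141 (-0.81) missed the fold limit, and 3 of 5 members were called. The count was 4 without LL replicate 1 or 3 (chi-miR-141 lost, at -1.04 with adjusted p = 0.0576 by edgeR and -0.99 with 0.0534), DP replicate 3 (chi-miR-200b lost, at -0.98) or any single LG library (chi-miR-200a lost, at -0.9997 to -0.9959).

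In LL vs. LG, no member was a DE-miRNA by edgeR, DESeq2 or limma-voom, where 3.88% of the tested miRNAs were DE-miRNAs that were lower in LL and 8.91% were higher. At an unadjusted p under 0.05, edgeR's test passed 2 of the 5, beside 33.0% of all tested miRNAs in either direction. The members were on both sides of 0. chi-miR-200a (log2 fold change -0.65, SE 0.20, adjusted p = 0.0484 by edgeR's test) passed the p threshold but not the fold limit. Its adjusted p by edgeR was 0.0657 with a replicate block, and 0.0503 to 0.0596 without any one of LL replicates 1 to 3 or LG replicates 1 and 3. It was 0.0102 to 0.0389 without any one DP library or LG replicate 2. By edgeR it was also 0.0181 with upper quartile scaling, 0.0162 with TMM without chi-miR-148a-3p, and 0.00242 with only both stages in the fit. The adjusted p was 0.000178 by DESeq2 and 0.0414 by limma-voom. The fold limit was missed in each of these. chi-miR-141 had the same log2 fold change with a wider error (-0.65, SE 0.30, adjusted p = 0.151). Of all tested miRNAs, 4.89% were lower in LL past the p threshold at any fold. chi-miR-200b (0.26, SE 0.22, adjusted p = 0.473), chi-miR-200c (0.38, SE 0.24, adjusted p = 0.291) and chi-miR-429 (-0.27, SE 0.28, adjusted p = 0.593) did not pass. With any 1 library left out, their log2 fold changes were 0.030 to 0.20, 0.14 to 0.36 and -0.57 to -0.27. Without overlap between libraries, chi-miR-200a and chi-miR-141 were lower in LL, as were 17.4% of the tested miRNAs, and chi-miR-200b and chi-miR-200c were higher, as were 31.0%. With library size only, chi-miR-200a (-1.23, adjusted p = 0.0100) and chi-miR-141 (-1.26, adjusted p = 0.0301) were lower in LL beyond both limits, while chi-miR-200b (-0.31) and chi-miR-200c (-0.19) changed sign. The median of all tested miRNAs was 0.17 with TMM and -0.42 with library size only. Relative to it, chi-miR-200b and chi-miR-200c stood at 0.09 and 0.22 with TMM and at 0.12 and 0.24 with library size only.

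**Figure D2:**
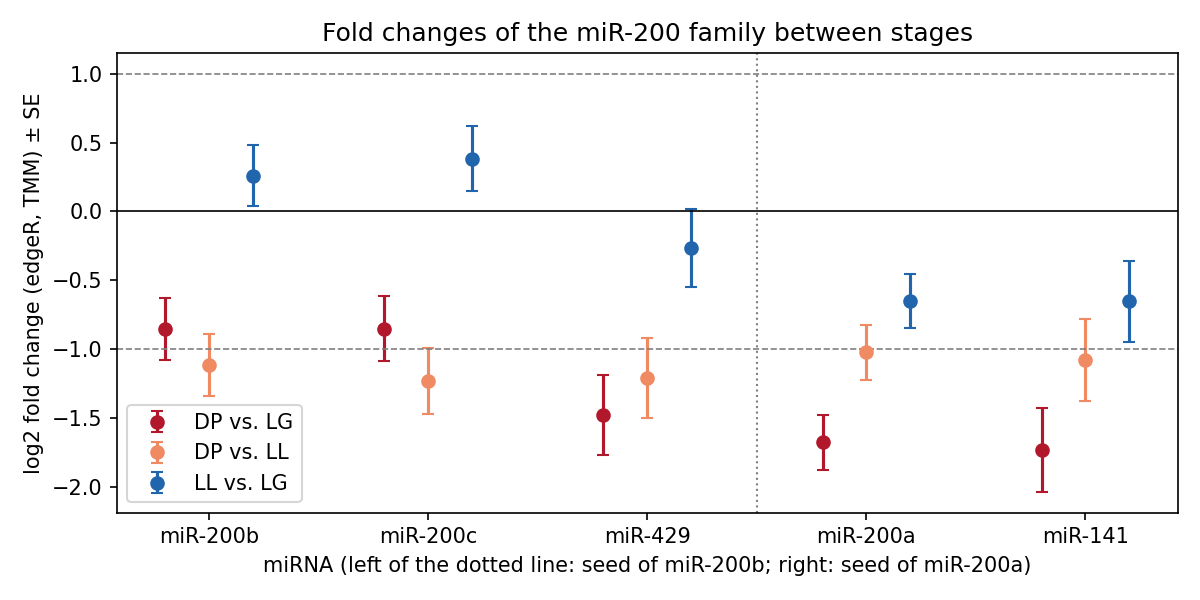
Fold changes of the members between stages. Points are log2 fold changes from edgeR with TMM scaling, bars are standard errors, dashed lines mark the fold limit, and the dotted line divides the members by seed. In DP vs. LG and LL vs. LG, chi-miR-200b and chi-miR-200c lie together, as do chi-miR-200a and chi-miR-141, whereas all 5 lie between -1.23 and -1.02 in DP vs. LL. chi-miR-429 lies apart from the others of its seed in DP vs. LG (-1.48), nearer to chi-miR-200a, and between the groups in LL vs. LG (-0.27).

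**Figure D3:**
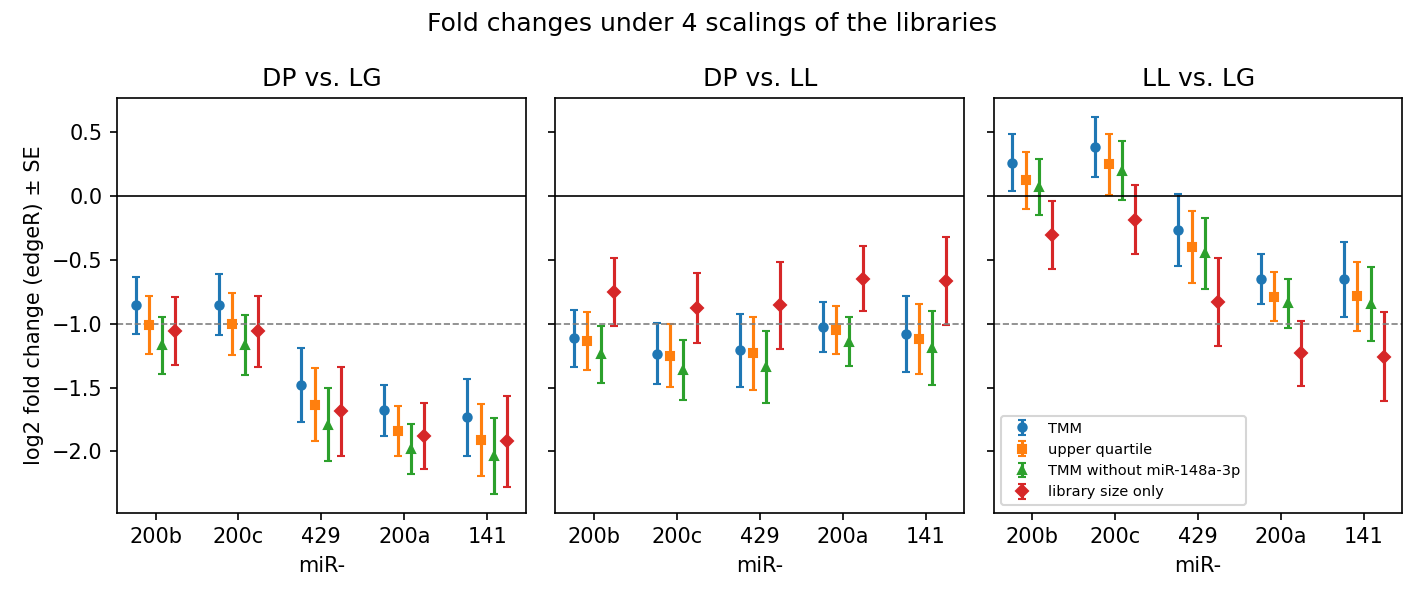
Fold changes of the members under 4 scalings of the libraries. Points are log2 fold changes from edgeR, bars are standard errors, and the dashed line marks the fold limit. Library size only raises all DP vs. LL values above the limit (-0.88 to -0.65) and lowers all LL vs. LG values, while the members keep nearly the same order.

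To compare the loci without any scaling, ratios of counts were taken within each library. The summed counts of the chromosome 16 locus were 5.16 ± 0.299 times (SD, n = 3) those of the chromosome 5 locus in LG, 4.21 ± 0.261 times in LL and 4.62 ± 0.295 times in DP. Over the libraries the ratio was 4.88, 5.47 and 5.12 in LG, 3.94, 4.23 and 4.46 in LL, and 4.73, 4.29 and 4.85 in DP. Each LG library was above all LL and DP libraries, and LL and DP overlapped. The difference between the stage means was small: on the log2 scale the ratio was 2.37 ± 0.08 in LG, 2.07 ± 0.09 in LL and 2.21 ± 0.09 in DP. With the mean of the members' log2 counts in place of the sums, the LL minus LG difference was -0.090 in place of -0.29.

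Grouping the members by seed in place of locus gave a wider difference between stages. The summed counts of chi-miR-200b, chi-miR-200c and chi-miR-429 were 2.30 ± 0.270 times those of chi-miR-200a and chi-miR-141 in LG, 4.36 ± 0.470 times in LL and 4.04 ± 0.922 times in DP. Over the libraries this ratio was 2.48, 2.44 and 1.99 in LG, 4.54, 4.71 and 3.83 in LL, and 4.03, 4.96 and 3.12 in DP, so LG was lowest without overlap and LL and DP overlapped. In terms of shares, chi-miR-200a made up 28.5% ± 2.29 of the family's counts in LG, 17.6% ± 1.44 in LL and 19.1% ± 3.34 in DP, and chi-miR-200b 54.3% ± 2.53, 62.5% ± 0.879 and 62.4% ± 2.46. The shares of chi-miR-200c were 14.4% ± 0.807, 18.0% ± 1.14 and 16.6% ± 1.42 in the same order. Since chi-miR-200b and chi-miR-200a held most of the counts, the sums by seed mainly follow this pair. They say little about chi-miR-429, whose share was 0.90%, 0.72% and 0.67% in LG, LL and DP. These sums and shares are descriptions, and the tests were made on single pairs.

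Of the 10 pairs, the 2 whose stage means differed least, chi-miR-200b to chi-miR-200c and chi-miR-200a to chi-miR-141, each share a seed across chromosomes. This ranking was lost without LL replicate 2. Then DP minus LL was 0.245 on the log2 scale for chi-miR-200a to chi-miR-141, and LG minus LL was 0.243 for chi-miR-200a to chi-miR-429. chi-miR-200b was 3.60, 4.10 and 3.65 times chi-miR-200c in LG, 3.25, 3.48 and 3.67 times in LL, and 3.93, 3.53 and 3.85 times in DP. The stages overlapped, and their mean log2 ratios (1.92, 1.79 and 1.91) lay within 0.12 of each other (exact permutation test of the F statistic of the 3 stages over 280 splits, p = 0.271, adjusted p = 0.388 over 10 pairs). chi-miR-200a was 15.7, 16.1 and 13.8 times chi-miR-141 in LG, 14.7, 18.5 and 12.9 times in LL, and 13.8, 22.5 and 14.0 times in DP. The mean log2 ratios were 3.93 ± 0.12, 3.93 ± 0.26 and 4.03 ± 0.40, and DP replicate 2 stood apart with the highest ratio (exact permutation p = 0.939, adjusted p = 0.939). On the log2 scale, DP minus LG was -0.0042 (SE 0.074) for the former pair and 0.10 (SE 0.23) for the latter. With 1 library left out, these differences lay between -0.039 and 0.055 and between -0.13 and 0.23, and the -0.13 was the value without DP replicate 2. The remaining pair of this kind, chi-miR-429 to chi-miR-200c, was less steady, with mean log2 ratios of -4.00 ± 0.15 in LG, -4.66 ± 0.14 in LL and -4.63 ± 0.09 in DP (exact permutation p = 0.025, adjusted p = 0.0625).

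In the 3 pairs of neighbours within a locus that carry different seeds, the stage means differed by 0.37 to 1.03 on the log2 scale, and none passed after adjustment. chi-miR-200b was 2.03, 2.06 and 1.65 times chi-miR-200a in LG, 3.68, 3.82 and 3.21 times in LL, and 3.42, 4.01 and 2.63 times in DP. All LG libraries were below those of LL and DP, and the mean log2 ratios were 0.93 ± 0.18, 1.83 ± 0.13 and 1.72 ± 0.31 (exact permutation p = 0.025, adjusted p = 0.0625). On chromosome 5, chi-miR-200c was 8.90, 8.10 and 6.25 times chi-miR-141 in LG, 16.6, 20.3 and 11.3 times in LL, and 12.0, 25.5 and 9.59 times in DP. LG was again lowest without overlap, with mean log2 ratios of 2.94 ± 0.26, 3.96 ± 0.43 and 3.84 ± 0.74 (exact permutation p = 0.0893, adjusted p = 0.179). The remaining pair of this kind, chi-miR-200a to chi-miR-429, had mean log2 ratios of 4.98 in LG, 4.62 in LL and 4.82 in DP, and LG overlapped DP (exact permutation p = 0.339, adjusted p = 0.424).

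chi-miR-429 did not keep its ratio to chi-miR-200b as closely. It shares a seed and a cluster with chi-miR-200b, yet the ratio of chi-miR-200b to it was 61.6, 69.1 and 51.6 in LG, 88.2, 78.8 and 96.1 in LL, and 90.3, 90.0 and 100.2 in DP. LG was lowest without overlap (mean log2 ratios 5.92 ± 0.21, 6.45 ± 0.14 and 6.54 ± 0.09, exact permutation p = 0.0143, adjusted p = 0.0625).

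Of the 10 pairs, 4 had an exact permutation p under 0.05, and none passed after adjustment over the 10, the lowest adjusted p being 0.0625. The pairs share members, so they are not independent and a single shift can recur in several of them. The smallest p that 280 splits can give is 0.00357. In 6 of the 10 pairs every LG library was apart from every LL and DP library, and in all 10 LL and DP overlapped. The range of the stage means was 0.10 to 0.66 in the 3 pairs of shared seed and different locus. It was 0.37 to 1.03 both in the 3 pairs of shared locus and different seed and in the 3 pairs that share neither. The lower end of both ranges, LL against LG for chi-miR-200a to chi-miR-429 and for chi-miR-429 to chi-miR-141, was 0.24 and 0.10 without LL replicate 2, and 0.51 and 0.63 without LL replicate 3. Members of one seed are also close in sequence, and whether the counting divided reads between them was not tested.

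**Figure D4:**
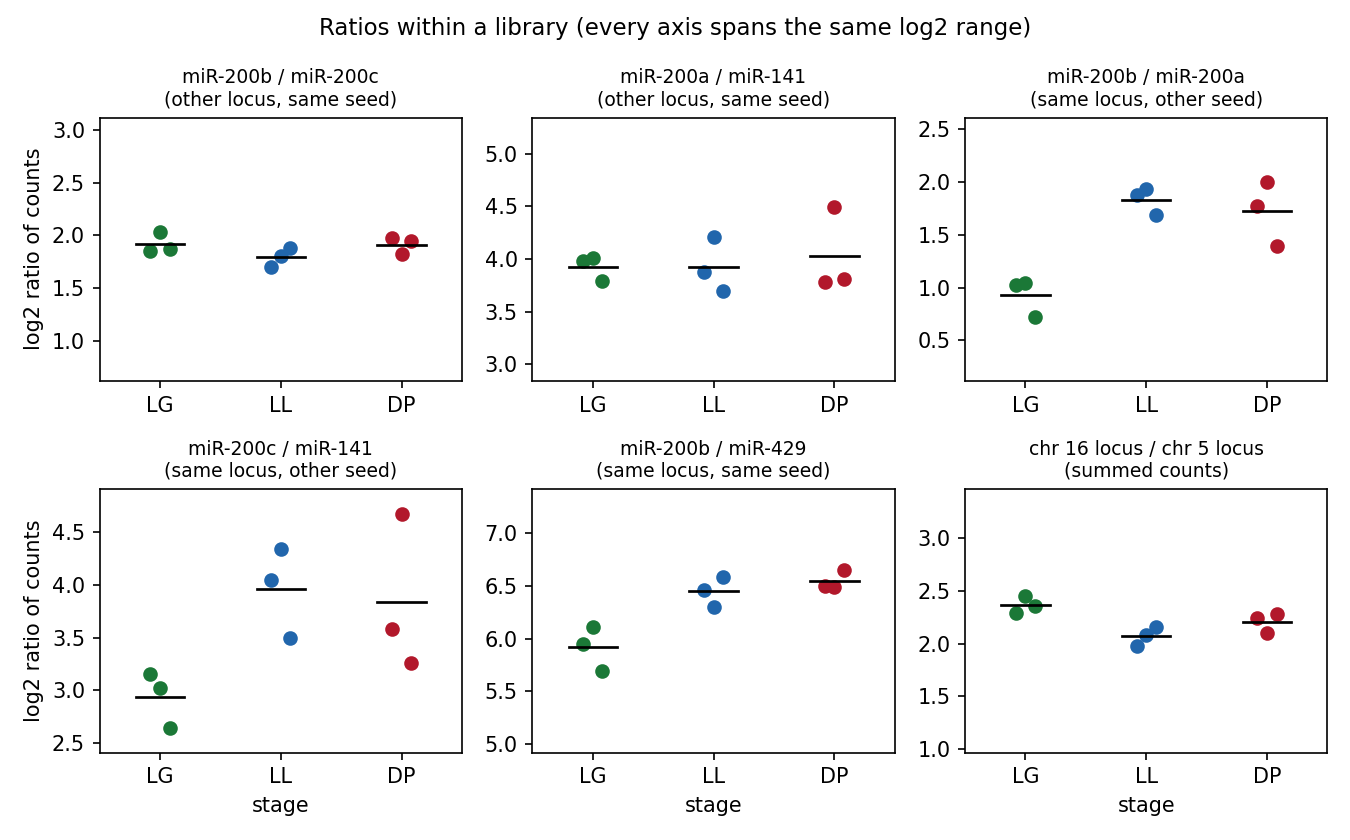
Ratios of counts within each library on a log2 axis, with every axis spanning the same range. Points are libraries and bars are stage means. chi-miR-200b to chi-miR-200c and chi-miR-200a to chi-miR-141, which share a seed across chromosomes, overlap between stages, whereas chi-miR-200b to chi-miR-200a and chi-miR-200c to chi-miR-141, which share a locus, are lowest in LG. chi-miR-200b to chi-miR-429, which share seed and locus, is also lowest in LG. Not plotted are chi-miR-429 to chi-miR-200c (shared seed, highest in LG without overlap) and chi-miR-200a to chi-miR-429 (shared locus, highest in LG, overlapping DP).

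The likeness of profiles over the 9 libraries is given as a description. Each member was compared with the 303 other tested miRNAs whose mean reached 10 CPM. In this ranking, chi-miR-200b and chi-miR-200c were each the closest to the other (Pearson r of log2 CPM 0.99). chi-miR-200a ranked 2 in the list of chi-miR-141 (r = 0.96), while chi-miR-200c ranked 48 there (r = 0.64), and chi-miR-141 ranked 6 in the list of chi-miR-200a. In the list of chi-miR-429, chi-miR-200a of the other seed ranked 2 (r = 0.93), ahead of chi-miR-200b at rank 3 (r = 0.92) and chi-miR-200c at rank 8 (r = 0.90). These values rest on 9 libraries that share stages and scaling. Outside the family, the 2 named miRNAs closest to the summed CPM of the chromosome 16 locus were chi-miR-345-3p (r = 0.95) and chi-miR-582-5p (r = 0.95), followed by a predicted miRNA (r = 0.93). Closest to the chromosome 5 locus with TMM were chi-miR-345-3p (r = 0.95), chi-miR-106a-5p (r = 0.92) and chi-miR-20b (r = 0.92). With library size only, chi-miR-582-5p came first (r = 0.95) and chi-miR-20b was not among the 3 closest.

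Several miRNAs known for other cell types were higher in DP. Of 5 stroma and smooth muscle miRNAs, 3 were DE-miRNAs that were higher in DP than in LG and 3 that were higher in DP than in LL by edgeR's test, where 21.6% and 15.1% of all tested miRNAs were. Of those called, chi-miR-199a-3p and chi-miR-199a-5p are arms of a shared hairpin, so the count is not of independent miRNAs. chi-miR-199a-3p (log2 fold changes 2.58 against LG and 1.91 against LL), chi-miR-199a-5p (1.72 and 1.09) and chi-miR-214-3p (2.75 and 2.76), all known from fibroblasts and other mesenchymal cells, rose in both comparisons. chi-miR-199a-3p and chi-miR-214-3p did so in all 19 alternatives, and chi-miR-199a-5p was called in 18 against LG and 13 against LL. chi-miR-214-3p had 54.2, 71.7 and 75.0 CPM in LG, 41.8, 61.8 and 96.7 in LL, and 351, 526 and 476 in DP, with DP apart from both. chi-miR-143-3p and chi-miR-145-5p, the smooth muscle and myoepithelial pair, passed in neither (0.14 and 0.40 against LG, -0.43 and -0.71 against LL). Without DP replicate 3, in which chi-miR-143-3p had 117011 CPM against 28796 and 38070 in the other DP libraries, both were lower in DP than in LL (-1.34, adjusted p = 0.00505 by edgeR, and -1.37, adjusted p = 0.0378). The summed level of the list was 57432 to 65601 CPM in LG, 77786 to 125722 CPM in LL and 47516 to 152577 CPM in DP, so the sum overlapped between stages.

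Of 4 immune cell miRNAs (chi-miR-142-3p was not analysed here), all 4 were higher in DP than in LG, beside 21.6% of all tested miRNAs, and chi-miR-150, a lymphocyte miRNA, was also higher than in LL, beside 15.1% (log2 fold changes 2.26 and 2.16). chi-miR-150 varied widely within DP (524 CPM ± 342, SD), against 110 ± 4.03 in LG and 117 ± 30.5 in LL. The number called against LG was 1 to 4 over the 19 alternatives. chi-miR-155-5p was called against LG in all 19 (2.22 with TMM), whereas chi-miR-146a (1.12) was called in 3 of them. Their summed level was 406 to 637 CPM in LG, 893 to 1265 CPM in LL and 1244 to 2398 CPM in DP. Of 5 striated muscle miRNAs, 2 were higher in DP than in LG and 1 higher than in LL, against the same 21.6% and 15.1%. The former number was 4 without DP replicate 1, 1 without DP replicate 3, and 0 with the library size alone without chi-miR-148a-3p, and the latter was 1 or 2. Their sum was 419 to 530 CPM in LG, 720 to 932 CPM in LL and 971 to 3444 CPM in DP. Of 2 endothelial miRNAs 1, and of 3 red blood cell miRNAs 1, were higher in DP than in LG, beside the same 21.6%, and none passed against LL. The endothelial miRNAs, chi-miR-126-3p and chi-miR-126-5p, are arms of a shared hairpin. No endothelial miRNA was called against LG in 15 of the 19 alternatives, DESeq2 and all single libraries left out except DP replicate 1 among them. The number of red blood cell miRNAs called against LG was 2 without DP replicate 1 and 0 in 6 alternatives, among them those without DP replicate 2 or any one LG library. Endothelial miRNAs summed to 14716 to 16363 CPM in LG, 15853 to 22980 CPM in LL and 19028 to 31975 CPM in DP, and red blood cell miRNAs to 87.1 to 168, 364 to 551 and 122 to 1284 CPM. No member of these lists was called lower in DP with TMM and all libraries, although the estimate for chi-miR-223-3p against LL was -1.06 (adjusted p = 0.176 by edgeR's test). The part of these cell types in the lower miR-200 levels was not tested.

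With TMM and all libraries, the other epithelial miRNAs tested had estimates of the opposite sign to the miR-200 family. Of 6 listed, chi-miR-182, chi-miR-183 and chi-miR-96, which come from a single cluster, were tested, and chi-miR-205, chi-miR-203-3p and chi-miR-375 were not analysed here. chi-miR-183 was higher in DP than in LL (log2 fold change 1.18, SE 0.39, edgeR adjusted p = 0.0441), but it was called in 7 of the 19 alternatives, and not with chi-miR-148a-3p left out before TMM (1.04, adjusted p = 0.0776). In DP vs. LG its log2 fold change was 0.89 (adjusted p = 0.102), and those of chi-miR-182 and chi-miR-96 were 0.95 (adjusted p = 0.0731) and 0.27 (adjusted p = 0.676), so none passed edgeR's test. The summed level of the cluster was 545 to 1084 CPM in LG, 432 to 1086 CPM in LL and 996 to 1659 CPM in DP. All 3 had positive estimates in both comparisons with DP, where all 5 miR-200 members had negative ones. In DP vs. LG, the estimate of chi-miR-96 was below 0 in 6 of the 19 alternatives. The lowest was -0.53, with the library size alone without chi-miR-148a-3p, and it was -0.32 without DP replicate 1 and -0.17 without LG replicate 3.

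**Figure D5:**
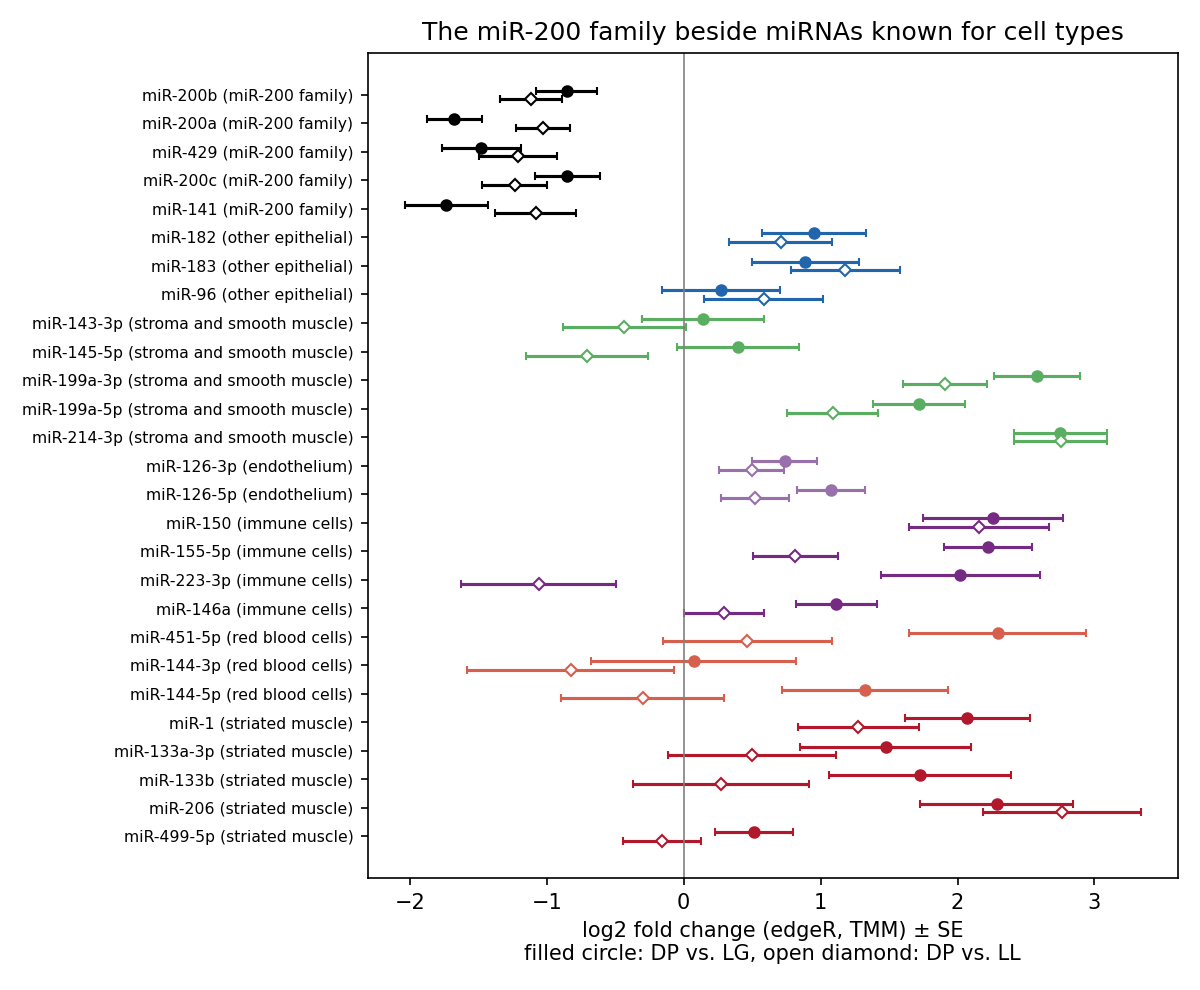
Fold changes in DP of the miR-200 family beside miRNAs known for other cell types. Points are log2 fold changes from edgeR with TMM scaling (filled circles against LG, open diamonds against LL) and bars are standard errors. The 5 family members lie between -1.73 and -0.85, while chi-miR-199a-3p and chi-miR-214-3p lie between 1.91 and 2.76. In the same list, chi-miR-143-3p and chi-miR-145-5p lie at 0.14 and 0.40 against LG and at -0.43 and -0.71 against LL.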

How the data were processed

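Small RNA-seq counts of 9 mammary gland libraries (LL, DP and LG, 3 goats each) were analysed. Per the study's methods, the authors trimmed and filtered the reads, mapped them to the goat assembly ARS1.2 with miRDeep2, merged known miRBase and predicted miRNAs, and counted reads with miRDeep2's quantifier. That the authors' deposited values are raw counts was read from the values, which are whole numbers, except in LL replicate 3, with totals that differ between libraries. The submitters' processing notes name FastQC 0.11.9, cutadapt 4.2 and Bowtie 1.1.1, while the methods name Trimmomatic for trimming. In LL replicate 3, which was read as a column of expected counts, the authors' deposited values of 2 predicted miRNAs were not whole, and these were rounded. The study's FPKM filter and RUVSeq step were not applied.

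Libraries were scaled with TMM, and the miRNAs that reached 0.5 CPM in 3 or more libraries were tested in 1 fit of all 9 libraries with edgeR 4.0.16 (glmQLFit and glmQLFTest, R 4.3.3). p-values were Benjamini-Hochberg adjusted over 696 miRNAs, and DE-miRNAs were those with an adjusted p under 0.05 whose log2 fold change exceeded 1 in size. The script was tested on simulated data. Log2 ratios of counts between members were compared over stages by an exact permutation test of the F statistic (280 splits, Python 3.11.15). Stages came from the labels, days and parity from the study's methods.

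The alternatives were, for the tool, DESeq2 1.42.0 and limma-voom (version 3.58.1 of limma). For the scaling they were the upper quartile, the library size alone, and TMM without chi-miR-148a-3p. Further fits used no filter, a minimum of 10 counts per library, both compared stages alone, a replicate block, or 1 library fewer. Ratios were repeated with 0.5 or 10 counts added and with a mean of log2 counts per locus. The library size alone without chi-miR-148a-3p was chosen after seeing the data. The members and lists were chosen with earlier results of these data known. Named are the 5 members, the 3 miRNAs most like each locus, marker list members and chi-miR-148a-3p. Seeds and cell types are textbook knowledge. Coordinates are those of RefSeq's annotation of ARS1.2, in which all 5 members matched a gene. Depth is given as total counts. Counting intervals and floors cover counting error only, since PCR copies were not told apart from molecules.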

Additional observations from a re-analysis of the deposited data

How the results depend on the processing

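In DP vs. LG, the number of members called was 3, and it was 5 with DESeq2, the upper quartile, no filter, a minimum of 10 counts per library, library size only, TMM without chi-miR-148a-3p, and the library size alone without that miRNA. It was 3 to 5 with 1 library left out. The members that changed, chi-miR-200b and chi-miR-200c, were lower in DP in every alternative. In DP vs. LL, the number was 5, and 0 with library size only. It was 3 to 5 with 1 library left out. In LL vs. LG it was 0, and 2 with library size only, and it stayed at 0 with 1 library left out. The log2 fold change of chi-miR-200b in LL vs. LG was -0.31 with library size only, -0.051 with no filter and -0.0031 with the library size alone without chi-miR-148a-3p, and that of chi-miR-200c was -0.19 with library size only. DE-miRNAs were 31.5% of the tested miRNAs in DP vs. LG (22.2% to 36.1% with 1 library left out), 26.7% in DP vs. LL (18.0% to 27.9%) and 12.8% in LL vs. LG (4.79% to 18.2%). In LL vs. LG they were 21.1% of 667 with only both stages in the fit, and, in counts, 33, 36, 54 and 41 in place of 89 without LL replicate 1, LL replicate 2, LG replicate 1 and LG replicate 3. The higher and lower DE-miRNAs were 150 and 69 in DP vs. LG, 105 and 81 in DP vs. LL and 62 and 27 in LL vs. LG. With library size only they were 116 and 85, 165 and 59, and 30 and 90, and without chi-miR-148a-3p as well they were 46 and 193, 32 and 157, and 43 and 49. For the log2 ratio of chi-miR-200a to chi-miR-141, DP minus LL was 0.10, and between -0.13 and 0.25 with 1 library left out, being -0.014 without LL replicate 3 and -0.13 without DP replicate 2. For the log2 ratio of the loci, the mean of log2 counts gave -0.029 for DP minus LG (in place of -0.16) and -0.090 for LL minus LG (in place of -0.29). Adding 0.5 or 10 counts changed no call on a ratio, but with at least 1784 counts for every member it could hardly have done so. Same-numbered libraries correlated between -0.10 and 0.21, and 6 of the 9 libraries correlated best with their own number. Whether the numbers stand for a shared batch was not tested. With a replicate block, the number of DE-miRNAs was 222, 170 and 88 and the number of members called 3, 5 and 0, and no call on a member (both limits) or ratio changed, while the adjusted p of chi-miR-200a in LL vs. LG was 0.0657. The causes of these changes were not tested. With 3 goats a stage, the exact test over stages can give no p under 0.00357.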
